A study of Mus musculus with 8 samples.

Results

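The genes described here are 10 macrophage genes: Trem2, Tyrobp, Ms4a7, Cx3cr1, Aif1, Ctss, Cd68, Emr1 (now Adgre1), Fcer1g and Lyz2. They were taken by name, as every probe whose gene name in the scanner files was one of these, and they were listed because their levels in wild-type and SOD1G93A nerves were already known to differ. Their genotype differences are therefore a description and carry no test. The names matched 14 of 55681 probes. Of these, 13 were well above background in the nerve channel on at least 4 of the 8 arrays, and all 10 genes were among the 15354 gene rows that were compared.

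The arrays measured total RNA of the sciatic nerve of male mice at 60 days of age, 4 wild-type mice (the design text calls them non-transgenic) and 4 SOD1G93A mice. SOD1G93A mice express human SOD1 with an amyotrophic lateral sclerosis mutation and lose motor neurons as adults; by the title of the series they had no symptoms yet. Each array also carried a common reference, RNA pooled from heart, liver and kidney of neonates of both genotypes, and no dye was swapped. The labels call the 4 samples of a genotype biological replicates, and do not give litters, copy number or whether nerves were pooled within a sample.

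Macrophages of peripheral nerve take up debris and myelin lipid and respond to injury of axons. Trem2 is a surface receptor for lipids and apolipoproteins that has no signalling tail of its own and depends on the adaptor Tyrobp (DAP12), whose tyrosine motif recruits the kinase Syk. Fcer1g, the common gamma chain of Fc receptors, is an adaptor of the same kind, and Aif1 (Iba1), Adgre1 and Cd68 are the usual histological markers of these cells.

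A probe and a set of promoters show what was read out for these genes. The Tyrobp probe is shown because it was the probe of the 14 whose match to the mm9 genome was broken. Its 60 bases span 1728 bases of chromosome 7, chr7:31200651-31202378 on the plus strand, so they are joined across at least 1 intron and were designed on spliced RNA.
Tyrobp: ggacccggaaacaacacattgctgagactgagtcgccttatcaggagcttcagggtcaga
Promoter windows of RefSeq, on GRCm38.p6, from 250 bases before to 50 after the start of transcription, were searched on both strands for 2 motifs of the ETS family of transcription factors, the first being the core of the PU box bound by the macrophage factor PU.1. This core was searched as GAGGAA, which appears in a printed strand as TTCCTC where the match lies on the opposite strand. The other motif, a more general ETS site, was searched as GGAAGT, which in the same way may appear in its reversed form as ACTTCC. The motifs share some letters and can overlap. Windows were found for 8 of the 10 genes, 9 windows in all. The PU box core was present in 5 genes, Trem2, Ms4a7, Aif1, Ctss and Cd68, and in 28.3% of all 32851 windows. The other motif was present in 4 genes, Ms4a7, Ctss, Cd68 and Lyz2, and in 23.8% of all windows. Ctss and Cd68 are printed because each had the PU box core in 2 places and the other motif as well, Trem2 because it had the largest genotype difference of the 10 genes, and Cx3cr1 as a window with neither motif. Capitals mark the motifs. The windows are chr17:48346151-48346450 (plus strand) for Trem2, chr3:95526536-95526835 (plus strand) for Ctss, chr11:69666121-69666420 (minus strand) for Cd68 and chr9:120068247-120068546 (minus strand) for Cx3cr1.
Trem2: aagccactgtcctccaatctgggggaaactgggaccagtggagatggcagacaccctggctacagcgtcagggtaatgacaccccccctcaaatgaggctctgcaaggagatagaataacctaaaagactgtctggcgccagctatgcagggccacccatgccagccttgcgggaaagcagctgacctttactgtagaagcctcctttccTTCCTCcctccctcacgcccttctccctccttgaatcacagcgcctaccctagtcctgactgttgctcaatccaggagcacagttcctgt
Ctss: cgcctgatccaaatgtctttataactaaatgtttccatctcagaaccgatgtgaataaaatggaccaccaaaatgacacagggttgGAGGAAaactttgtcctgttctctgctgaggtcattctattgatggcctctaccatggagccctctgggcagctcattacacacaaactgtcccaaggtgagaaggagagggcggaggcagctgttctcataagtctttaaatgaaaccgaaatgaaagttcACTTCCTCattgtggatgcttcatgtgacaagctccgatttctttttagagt
Cd68: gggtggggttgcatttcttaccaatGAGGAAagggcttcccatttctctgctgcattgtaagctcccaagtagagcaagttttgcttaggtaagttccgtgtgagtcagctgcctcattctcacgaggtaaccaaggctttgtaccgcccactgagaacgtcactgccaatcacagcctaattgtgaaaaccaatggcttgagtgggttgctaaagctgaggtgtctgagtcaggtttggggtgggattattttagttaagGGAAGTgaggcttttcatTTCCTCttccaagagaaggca
Cx3cr1: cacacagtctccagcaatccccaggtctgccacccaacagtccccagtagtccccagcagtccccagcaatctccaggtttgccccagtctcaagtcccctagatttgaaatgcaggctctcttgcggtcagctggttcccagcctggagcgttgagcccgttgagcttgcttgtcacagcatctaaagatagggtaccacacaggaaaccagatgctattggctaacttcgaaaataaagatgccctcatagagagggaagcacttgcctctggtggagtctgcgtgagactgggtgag
A match is a description of these letters, and binding was not measured. The gene for PU.1, called Sfpi1 on this array, had 1 probe, which was well above background on 0 of the 8 arrays. It was looked up after the other values were seen.

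All 10 genes had a higher mean in SOD1G93A than in wild-type nerves, by 0.47 to 1.26 on the log2 scale, and the median of the 10 differences was 0.68 against -0.02 over all 15354 genes. Levels are given below as the log2 ratio of nerve to reference pool, so that 0 is the level of the pool and a step of 1 is a doubling. Differences are SOD1G93A minus wild-type on the same scale, with the standard error (SE) of the limma fit. The 4 SOD1G93A replicates were not alike. SOD1G93A replicate 1 had the lowest SOD1G93A value for 10 of 10 genes, and SOD1G93A replicate 4 had the highest value of all 8 arrays for 10 of 10. Each difference is therefore also given without SOD1G93A replicate 1. Leaving out the lowest SOD1G93A array raises each difference by construction, so the rise itself is not a result.

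**Figure D1:**
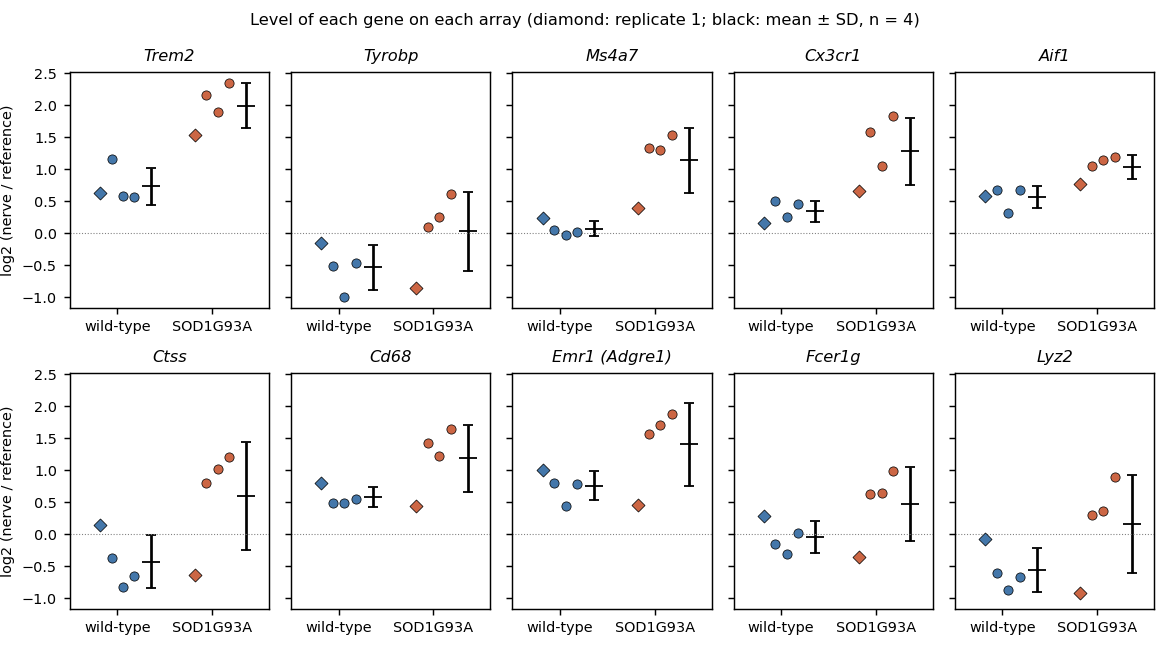
Log2 ratio of nerve to reference pool (vertical axis) of the brightest probe of each of the 10 genes on each of the 8 arrays, by genotype. Diamonds mark replicate 1 of each genotype, and black bars give the mean ± SD of 4 arrays. SOD1G93A replicate 1 lies above all wild-type arrays for Trem2, Ms4a7, Cx3cr1 and Aif1 and inside or below their range for the other 6, while SOD1G93A replicates 2 to 4 lie above all wild-type arrays for all 10 genes.

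Trem2, the lipid-sensing receptor, was read by 1 probe at chr17:48491537-48491596 (mm9, plus strand). Its log2 ratio was 0.62, 1.15, 0.58 and 0.56 on wild-type arrays 1 to 4, and 1.54, 2.17, 1.90 and 2.35 on SOD1G93A arrays 1 to 4. Every SOD1G93A array was above every wild-type array, replicate 1 included. The means were 0.73 ± 0.28 (SD, n = 4) and 1.99 ± 0.35 (SD, n = 4), a difference of 1.26 ± 0.19 (SE), or 2.39-fold. Without SOD1G93A replicate 1 the difference was 1.41. The nearest arrays of the genotypes, wild-type replicate 2 and SOD1G93A replicate 1, were 0.39 apart, the widest gap among the 10 genes.

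Cx3cr1, the receptor for the membrane-bound chemokine fractalkine, had 3 probes. The brightest, at chr9:119957811-119957870 (mm9, minus strand), gave 0.16, 0.50, 0.26 and 0.46 in wild-type and 0.66, 1.58, 1.05 and 1.83 in SOD1G93A nerves. The groups did not overlap, and their means of 0.35 ± 0.16 (SD, n = 4) and 1.28 ± 0.53 (SD, n = 4) differed by 0.93 ± 0.23 (SE), or 1.14 without SOD1G93A replicate 1. Another probe, at chr9:119957806-119957865, shares 55 of its 60 bases with it and is not a separate measurement of the transcript. It gave a difference of 0.90 ± 0.24 (SE), with SOD1G93A replicate 1 at 0.43, just under the highest wild-type array at 0.45. The third probe, at chr9:119959018-119959077, was dim and was well above background on 4 of the 4 wild-type and 3 of the 4 SOD1G93A arrays. Its difference was 0.28 ± 0.26 (SE), and its groups overlapped with and without SOD1G93A replicate 1, which was its lowest array at -0.38.

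Emr1, an adhesion receptor on the surface of mature mouse macrophages, was read at chr17:57622868-57622927 (mm9, plus strand). It gave 1.00, 0.80, 0.45 and 0.78 in wild-type and 0.46, 1.56, 1.70 and 1.88 in SOD1G93A nerves. SOD1G93A replicate 1 lay at the bottom of the wild-type range, and the other 3 SOD1G93A arrays lay above that range. The means were 0.76 ± 0.23 (SD, n = 4) and 1.40 ± 0.64 (SD, n = 4), and the difference was 0.64 ± 0.28 (SE), or 0.96 without SOD1G93A replicate 1. A separate probe at chr17:57620350-57620409 gave 0.89, 0.59, 0.40 and 0.59 in wild-type and 0.26, 1.14, 1.37 and 1.43 in SOD1G93A nerves. It ordered the SOD1G93A arrays in the same way, and its difference was 0.43 ± 0.24 (SE).

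Ms4a7, which encodes a membrane protein of the Ms4a family, was read at chr19:11395903-11395962 (mm9, minus strand). Its wild-type values were the closest together of the 10 genes, at 0.24, 0.04, -0.02 and 0.02, a mean of 0.07 ± 0.12 (SD, n = 4). The SOD1G93A values were 0.39, 1.33, 1.31 and 1.53, a mean of 1.14 ± 0.51 (SD, n = 4). The groups did not overlap, and the difference was 1.07 ± 0.22 (SE). Without SOD1G93A replicate 1 it was 1.32 ± 0.09 (SE), and the lowest remaining SOD1G93A array stood 1.06 above the highest wild-type array.

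Tyrobp, the adaptor of Trem2, gave -0.15, -0.51, -0.997 and -0.47 in wild-type and -0.85, 0.10, 0.25 and 0.61 in SOD1G93A nerves. SOD1G93A replicate 1 lay within the wild-type range, below 3 of the 4 wild-type arrays, while the other SOD1G93A arrays lay above it. The means were -0.53 ± 0.35 (SD, n = 4) and 0.03 ± 0.62 (SD, n = 4), and the difference was 0.56 ± 0.29 (SE), or 0.85 without SOD1G93A replicate 1. Trem2 and Tyrobp thus had different values on the same array: on SOD1G93A replicate 1 Trem2 was 0.81 above its wild-type mean, and Tyrobp was -0.32 relative to its own.

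Fcer1g, the Fc receptor adaptor, was read at chr1:173159794-173159853 (mm9, minus strand). It gave 0.28, -0.16, -0.31 and 0.01 in wild-type and -0.35, 0.62, 0.64 and 0.98 in SOD1G93A nerves. SOD1G93A replicate 1 was the lowest of the 8 arrays and the other SOD1G93A arrays were the 3 highest. The difference was 0.52 ± 0.26 (SE), and 0.79 without SOD1G93A replicate 1, close to the values of Tyrobp.

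Aif1, which encodes the actin-binding protein Iba1, was read at chr17:35307959-35308018 (mm9, minus strand). It gave 0.58, 0.67, 0.31 and 0.68 in wild-type and 0.77, 1.04, 1.15 and 1.19 in SOD1G93A nerves. The groups did not overlap, although the gap between them was 0.09. Its difference of 0.47 ± 0.12 (SE) was the smallest of the 10, and it was 0.56 without SOD1G93A replicate 1.

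The 3 genes of lysosomes and secreted granules had overlapping groups. Ctss, the lysosomal protease cathepsin S, was read at chr3:95360245-95360304 (mm9, plus strand) and gave 0.14, -0.37, -0.82 and -0.65 in wild-type and -0.64, 0.80, 1.02 and 1.20 in SOD1G93A nerves. Its difference was 1.02 ± 0.38 (SE), and without SOD1G93A replicate 1 it was 1.43, the largest of the 10 genes in that comparison. The distance of SOD1G93A replicate 1 from the mean of the other SOD1G93A arrays was -1.65 for Ctss, the widest of the 10 genes, and -0.36 for Aif1, the narrowest.

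Cd68, a glycoprotein of lysosomal membranes, was read at chr11:69477775-69477834 (mm9, minus strand). It gave 0.80, 0.49, 0.48 and 0.56 in wild-type and 0.45, 1.42, 1.22 and 1.65 in SOD1G93A nerves, a difference of 0.60 ± 0.23 (SE), or 0.85 without SOD1G93A replicate 1. SOD1G93A replicate 1 was just under the lowest wild-type array. A second Cd68 probe, at chr11:69478979-69479038, was well above background on 0 wild-type and 3 SOD1G93A arrays, so it had only a bound in wild-type and was left out of the fit. In the Cy3 channel its mean was at least 1.27-fold higher in SOD1G93A, a bound set against the dimmest probes counted as above background and open to dye bias. The bound concerns means only. On SOD1G93A replicate 1 the log2 ratio of this probe was -0.14, below the wild-type arrays at 0.07 to 0.23, so its groups overlapped.

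Lyz2, the lysozyme of macrophages, was read at chr10:116719175-116719234 (mm9, minus strand). It gave -0.08, -0.61, -0.88 and -0.67 in wild-type and -0.92, 0.30, 0.36 and 0.89 in SOD1G93A nerves. SOD1G93A replicate 1 was the lowest array and the others were above all wild-type arrays. The difference was 0.72 ± 0.34 (SE), or 1.07 without SOD1G93A replicate 1. Lyz1 is a close paralog, so cross-hybridisation makes the identity of this signal uncertain; the Lyz1 probe itself differed by 0.14 ± 0.37 (SE; limma, adjusted p = 0.91).

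**Figure D2:**
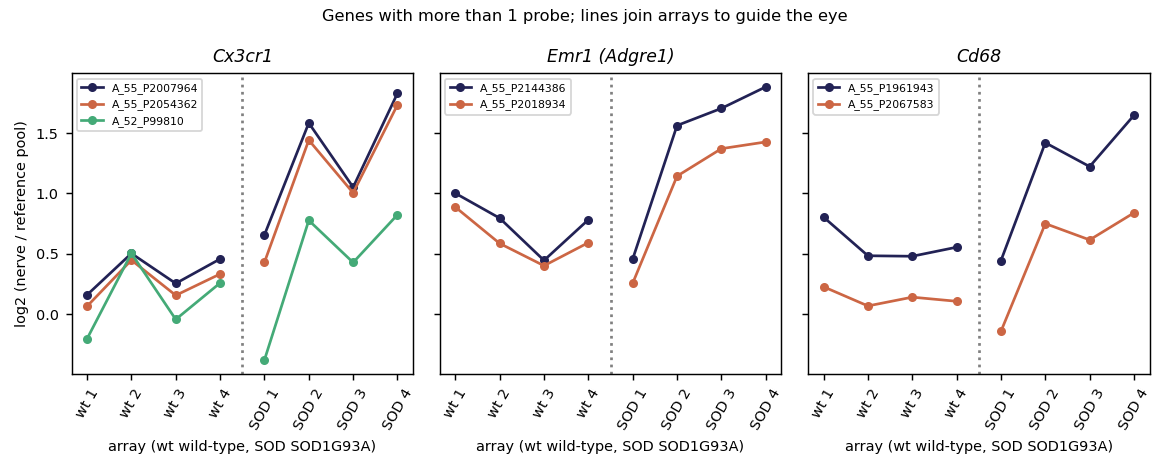
Log2 ratio of nerve to reference pool (vertical axis) for every probe of Cx3cr1, Emr1 and Cd68 on the 8 arrays (horizontal axis), with the probe name in each key. For each probe SOD1G93A replicate 1 is the lowest SOD1G93A array, and the dimmer probes show smaller steps, such as 0.28 against 0.93 for Cx3cr1.

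Of the 10 genes, 4 had groups that did not overlap, Trem2, Ms4a7, Cx3cr1 and Aif1, where 3.69% of all 15354 genes had every SOD1G93A array above every wild-type array. Without SOD1G93A replicate 1, the groups did not overlap for 10 of 10, where this held for 7.7% of all genes. These counts use the brightest probe of each gene. The other Cx3cr1 probes had overlapping groups, and the dim one overlapped also without SOD1G93A replicate 1. At a Benjamini-Hochberg adjusted p under 0.05 in limma, 0 of the 10 genes were called, where among all 15354 genes 11 (0.0716%) were called higher and 14 (0.0912%) lower, or 0.163% in either direction, and 7 of the 10 had an unadjusted p under 0.05 with a higher level, where 4.85% of all genes did. Without SOD1G93A replicate 1, the call was made for 7 of the 10 (Trem2, Ms4a7, Cx3cr1, Aif1, Ctss, Cd68 and Emr1), where 84 genes (0.547%) were called higher and 181 (1.18%) in either direction. The genes were chosen on this contrast, and the array left out had the lowest SOD1G93A value for 10 of 10. Nothing is therefore read from these shares. The median difference of the 10 genes without SOD1G93A replicate 1 was 1.02, against -0.0056 over all genes.

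**Figure D3:**
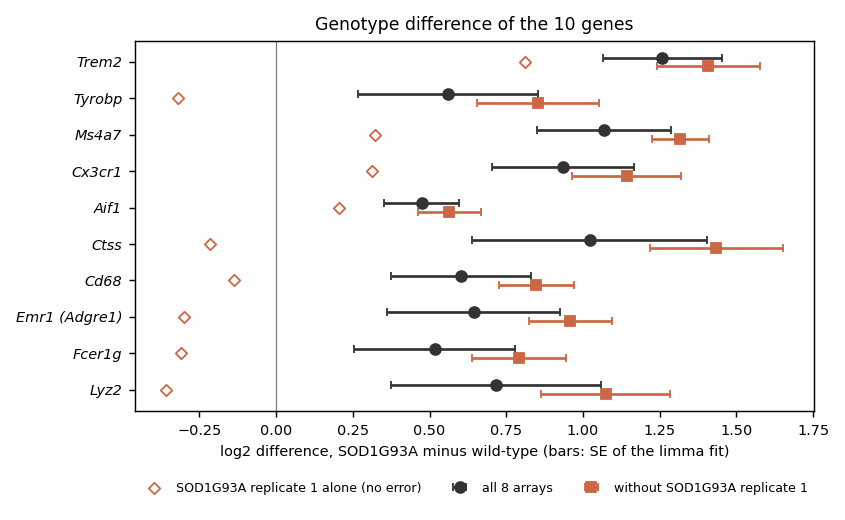
Log2 difference, SOD1G93A minus wild-type (horizontal axis), of the 10 genes over all 8 arrays (black circles, bars the SE of the limma fit), without SOD1G93A replicate 1 (orange squares, SE) and for SOD1G93A replicate 1 alone against the wild-type mean (open diamonds, no error). The differences over all arrays run from 0.47 to 1.26, and the open diamonds from -0.36 for Lyz2 to 0.81 for Trem2.

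By the brightest probe of each gene, SOD1G93A replicate 1 was above all wild-type arrays for 4 of the 10 genes, within their range for 3 (Tyrobp, Ctss and Emr1) and below it for 3 (Cd68, Fcer1g and Lyz2). Over all genes this array was above all wild-type arrays for 29.5% and below all of them for 36.4%. Any array falls outside the range of 4 others for some genes, and these shares were not computed for the other SOD1G93A arrays. SOD1G93A replicate 1 had the lowest median Cy3 intensity on kept spots, 373.7, where wild-type replicate 1 had the highest, 713.3, and the other arrays lay between 526.2 and 597. On the first principal component, with 36.4% of the variance, it lay at 30.4 and wild-type replicate 1 at -33.7. Nerve signal was well above background on 35.5% to 41.7% of the 59305 spots of an array and saturated on 0. On the slide that held all 8 arrays, genotype and position cannot be told apart. The Sod1 probe differed by -0.17 ± 0.11 (SE; limma, adjusted p = 0.59), which does not check the genotype labels, since its binding to the human transcript is not known here.

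Wild-type nerve was set against the reference pool, on the arrays that also enter the genotype contrast used to choose the genes. The levels are therefore a description with no test. Such a ratio does not rank the genes by abundance in nerve. In the normalized Cy3 channel the log2 wild-type mean was 10.19 for Tyrobp, which was under the pool, and 7.98 for Trem2, which was above it. In limma, 4 of the 10 were higher in wild-type nerve at an adjusted p under 0.05, where 42.7% of all genes were, and 1 was lower, where 34.1% were, and nothing is read from these shares. Emr1 was 0.76 ± 0.20 (SE) above the pool and Trem2 0.73 ± 0.14 (SE). Cd68 was 0.58 ± 0.16 (SE) and Aif1 0.56 ± 0.09 (SE) above it. These 4 genes, which are the 4 past the threshold, were above the pool on 8 of 8 arrays. The adaptor Tyrobp, past the threshold on the low side, was at -0.53 ± 0.21 (SE) and fell short of it in 7 of 18 alternative settings.

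The other 5 genes were short of the threshold, although Lyz2 and Cx3cr1 passed it in 5 of 18 alternative settings each and Ctss in 3. Cx3cr1 was at 0.35 ± 0.16 (SE) and was above the pool on 8 of 8 arrays. Lyz2 was at -0.56 ± 0.24 (SE), Ctss at -0.43 ± 0.27 (SE), Ms4a7 at 0.07 ± 0.15 (SE) and Fcer1g at -0.04 ± 0.18 (SE). The pool is 1 sample of 3 neonatal organs that hold macrophages of their own, and without a dye swap its ratio includes any dye bias of a probe.

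Most of the 10 genes varied together over the 8 arrays once the genotype means were taken out, while Trem2 and Cx3cr1 did so less without SOD1G93A replicate 1 and among wild-type nerves. For each gene, the deviation of each array from its genotype mean was correlated with that of each other gene over the 8 arrays, as a description: the points share arrays, RNA samples and normalization. Over the 45 pairs the median Pearson r was 0.86, with a range from 0.60 to 0.99, and without SOD1G93A replicate 1 the median was 0.67, from -0.09 to 0.99. Tyrobp and Fcer1g, the adaptors, had an r of 0.98, and 0.95 without that array, and Tyrobp and Emr1 had 0.98 and 0.99. Trem2 and its adaptor Tyrobp had 0.64 and 0.23. Trem2 and Cx3cr1 had 0.85 and 0.71, so Trem2 tracked the chemokine receptor more closely than its adaptor in these 8 arrays; the difference of the coefficients was not tested. Against the mean of the other 9 genes without SOD1G93A replicate 1, r was 0.33 for Trem2, 0.28 for Cx3cr1 and 0.60 for Aif1, and from 0.79 to 0.93 for the other 7. Over the 4 wild-type arrays alone the median r of the pairs was 0.74, but 11 of the 45 pairs were below 0, each with Cx3cr1 or Trem2 in it, such as Cx3cr1 with Cd68 (-0.67), with Ms4a7 (-0.58) and with Lyz2 (-0.49), and Trem2 with Cd68 (-0.35). The wild-type r of Trem2 rests largely on wild-type replicate 2, at 1.15 where the other wild-type arrays were at 0.56 to 0.62. Cx3cr1 also had its highest wild-type value on that array (0.50).

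**Figure D4:**
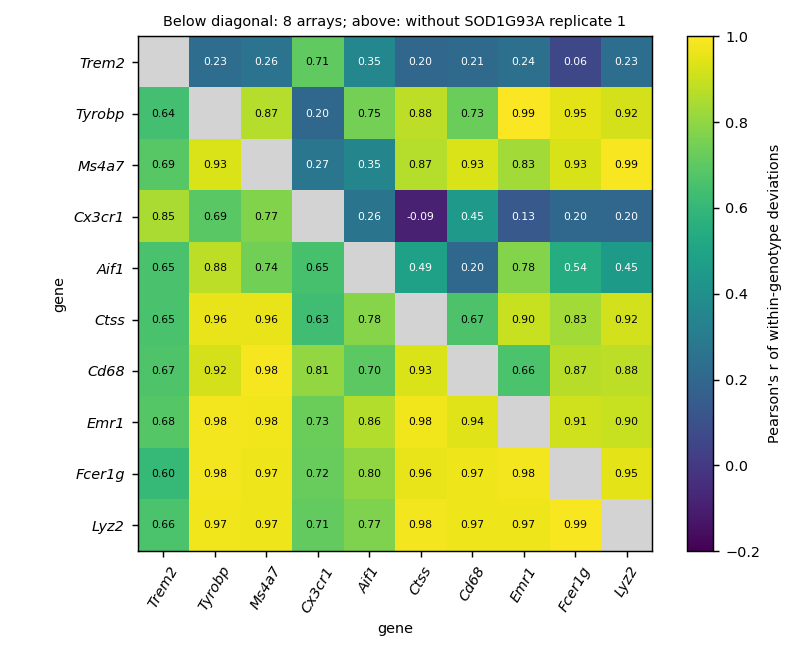
Pearson's r between the within-genotype deviations of each pair of the 10 genes (both axes list genes), over 8 arrays below the diagonal and over 7 arrays, without SOD1G93A replicate 1, above it. Below the diagonal r runs from 0.60 to 0.99; above it Trem2 and Cx3cr1 have low values with most of the other genes but 0.71 with each other.

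Among 13580 other genes well above background on all 8 arrays, those whose within-genotype deviations were most like the mean of the 10 were Bmyc, Zeb1 and Htra1, each at r = 0.99, then C1qc (0.99), Nckap1l (0.99), Jak1 (0.98), Eif2b1 (0.98), C1qa (0.98), Ethe1 (0.98) and Cd48 (0.98). Without SOD1G93A replicate 1 these had r from 0.89 (Ethe1) to 0.98 (Zeb1). Large coefficients were common on these 8 arrays: for the candidates percentile 5 was -0.87 and percentile 95 was 0.88. Why they were so large was not tested. Of the candidates, 18.1% had a higher r with the mean of the 10 than Trem2 had with the mean of the other 9 (0.71), the lowest of the 10. These genes had genotype differences of either sign: Htra1 was at -0.24 ± 0.19 (SE; limma, adjusted p = 0.65) and Bmyc at -0.12 ± 0.13 (SE; limma, adjusted p = 0.74), while C1qa was at 0.47 ± 0.36 (SE; limma, adjusted p = 0.65). For Trem2 alone the most alike named genes were Taf6l (r = 0.97), Mrpl30 (0.97) and Jdp2 (0.96), the other two of the top 5 being probes without a gene name, and these 3 had differences of -0.15, -0.03 and 0.04.

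Genes that act with the 10 were taken from lists, in each of which limma called 0 genes at an adjusted p under 0.05 over all genes. For comparison, 45.3% of all 15354 genes had a higher mean in SOD1G93A, and 11.4% had an unadjusted p under 0.05, 4.85% higher and 6.57% lower. The lists were also chosen with earlier results of these data known, so their counts are a description. Of 18 genes of Trem2 and Tyrobp signalling, 14 were measured, 8 with a higher and 6 with a lower mean in SOD1G93A, and 0 had an unadjusted p under 0.05. The median difference was 0.05, and 0.13 without SOD1G93A replicate 1, against -0.02 over all genes. Syk, the kinase recruited by Tyrobp, was at -0.20 ± 0.18 (SE; limma, adjusted p = 0.70). Plcg2, the phospholipase downstream of Syk, was at -0.28 ± 0.14 (SE; limma, adjusted p = 0.47), and Hcst, the related adaptor DAP10, was at 0.14 ± 0.19 (SE; limma, adjusted p = 0.81). On SOD1G93A arrays 1 to 4 Hcst read -0.55, 0.21, 0.31 and 0.34, with replicate 1 again the lowest.

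Of 19 receptors that pair with Tyrobp or Fcer1g, 7 were measured, 6 of them with a higher mean, 0 had an unadjusted p under 0.05, and the median difference was 0.20, or 0.33 without SOD1G93A replicate 1. The Fc receptors Fcgr3 and Fcgr2b were at 0.27 ± 0.18 (SE; limma, adjusted p = 0.60) and 0.10 ± 0.24 (SE; limma, adjusted p = 0.89). Fcgr1, at 0.26 ± 0.17 (SE; limma, adjusted p = 0.58), was well above background on 1 wild-type and 3 SOD1G93A arrays. Most of the other receptors of this list, such as Trem3, Clec5a, Clec4d and Clec4e, were well above background on 0 arrays.

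Of 20 genes of lipid-associated and phagocytic macrophages, 18 were measured and 10 had a higher mean. An unadjusted p under 0.05 in limma was reached by 7, each with a higher mean, where 4.85% of all genes did so. The list was chosen with earlier results of these data known, so nothing is read from this share. Apoe, a lipid carrier and ligand of Trem2, was at 0.37 ± 0.14 (SE; limma, adjusted p = 0.35). Lpl, lipoprotein lipase, was at -0.79 ± 0.46 (SE; limma, adjusted p = 0.54), and Itgax, the integrin CD11c, was at -0.09 ± 0.25 (SE; limma, adjusted p = 0.91), above background on 1 wild-type and 3 SOD1G93A arrays. The median of the list was 0.14, and 0.22 without SOD1G93A replicate 1. Lgals3, the lectin galectin-3, was singled out after its values were seen: its difference was 1.12 ± 0.18 (SE; limma, adjusted p = 0.059), which missed the threshold, and without SOD1G93A replicate 1 it was 1.29 and passed it (limma, adjusted p = 0.0066). Among the genes of all the lists, the same was seen for Ngfr, the low-affinity neurotrophin receptor of the Schwann cell list, at 0.70 ± 0.11 (SE; limma, adjusted p = 0.055) and 0.71 (limma, adjusted p = 0.034), and for Robo4 of the endothelial list, at -0.75 ± 0.13 (SE; limma, adjusted p = 0.077) and -0.84 (limma, adjusted p = 0.014).

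Of 13 chemokine and growth factor genes that act on macrophages, 9 were measured, 3 with a higher mean, 2 had an unadjusted p under 0.05, and the median was -0.03, or -0.16 without SOD1G93A replicate 1. Cx3cl1, the ligand of Cx3cr1, was at -0.38 ± 0.15 (SE; limma, adjusted p = 0.38), opposite in sign to its receptor. The monocyte chemokines Ccl2 and Ccl7 were at 0.74 ± 0.41 (SE; limma, adjusted p = 0.53) and 0.75 ± 0.43 (SE; limma, adjusted p = 0.54). Ccl7 read 0.67, 2.19, 2.20 and 3.10 on SOD1G93A arrays 1 to 4 and between 0.93 and 1.64 in wild-type, so that its replicate 1 was low as for the 10 genes. Of 10 other genes of the Ms4a cluster, 5 were measured, 3 with a higher mean, 2 had an unadjusted p under 0.05, and the median was 0.27. Ms4a4a was at 0.28 ± 0.17 (SE; limma, adjusted p = 0.57), Ms4a4c at -0.10 ± 0.11 (SE; limma, adjusted p = 0.74) and Ms4a4d at -0.21 ± 0.31 (SE; limma, adjusted p = 0.82). Ms4a6c was at 0.27 ± 0.10 (SE, limma, adjusted p = 0.36) and Ms4a6d at 0.56 ± 0.20 (SE, limma, adjusted p = 0.34). Ms4a6d was well above background on 1 wild-type and 3 SOD1G93A arrays. Ms4a7, at 1.07, stood above each of these genes.

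Markers of cell types were set beside the 10 genes, since fewer cells of a type and less RNA per cell cannot be told apart in whole nerve. For the 10 genes the summed normalized Cy3 signal was 4828 to 7224 in wild-type, 5565 on SOD1G93A replicate 1 and 11303 to 14712 on the other SOD1G93A arrays. For resident macrophages, 20 of 22 genes were measured, 14 with a higher mean, 1 had an unadjusted p under 0.05, and the median was 0.11, or 0.25 without SOD1G93A replicate 1. Their summed signal was 47125 to 62541 in wild-type and 52146 to 63357 in SOD1G93A, and Cd163 was above background on 0 arrays. C1qa was at 0.47 ± 0.36 (SE), and without that array at 0.88 (limma, adjusted p = 0.057). C1qb, at 0.40 ± 0.22 (SE; limma, adjusted p = 0.53), and C1qc, at 0.36 ± 0.20 (SE; limma, adjusted p = 0.53), like C1qa, encode subunits of complement C1q.

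For pan-leukocyte genes, 13 of 15 were measured, 7 with a higher mean, 1 had an unadjusted p under 0.05, the median was 0.0022 (0.06 without SOD1G93A replicate 1), and the summed signal was 11638 to 13731 in wild-type and 11860 to 13137 in SOD1G93A. Ptprc (CD45) was at -0.35 ± 0.17 (SE; limma, adjusted p = 0.49), Itgam (CD11b) at -0.10 ± 0.11 (SE; limma, adjusted p = 0.74) and Itgb2 (CD18) at 0.12 ± 0.12 (SE; limma, adjusted p = 0.73). These 3 genes mark leukocytes, macrophages included, and their differences lay between -0.35 and 0.12, where the median of the 10 was 0.68. For monocytes and neutrophils, 9 of 19 were measured, 2 with a higher mean and 3 with an unadjusted p under 0.05. The median was -0.10, or -0.24 without SOD1G93A replicate 1, and the summed signal was 28424 to 33693 in wild-type and 26448 to 36823 in SOD1G93A. The neutrophil genes S100a8, Mpo, Camp, Ngp and Ltf were above background on 0 arrays, and S100a9 was at -0.02 ± 0.12 (SE; limma, adjusted p = 0.97). Ly6c1, at -0.82 ± 0.26 (SE; limma, adjusted p = 0.28), and Ly6g, at -0.46 ± 0.16 (SE; limma, adjusted p = 0.32), had lower means in SOD1G93A without passing the threshold, Ly6g being above background on 3 wild-type arrays and 1 SOD1G93A array. For T, B and natural killer cells, 4 of 13 were measured, 2 with a higher mean (1 to 3 over the scalings tried) and 1 with an unadjusted p under 0.05; the median was -0.0065 (-0.03 without SOD1G93A replicate 1) and took either sign over those scalings. Their summed signal was 853 to 922 in wild-type and 851 to 1071 in SOD1G93A. For MHC class II, 6 of 7 were measured, 2 with a higher mean and 0 with an unadjusted p under 0.05, the median was -0.18 (-0.04 without SOD1G93A replicate 1) and the summed signal was 18690 to 37195 in wild-type and 15894 to 32896 in SOD1G93A.

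The label of the tissue was met by its markers: all 10 Schwann cell genes were measured, and the myelin genes Pmp22 and Mbp were 4.47 and 3.61 above the pool in wild-type. The Schwann cell list had a median difference of 0.12 with 10 of 10 means higher (6 of 10 in the Cy3 channel alone), and -0.03 without SOD1G93A replicate 1. Averaged over the list as a deviation from the mean of the 8 arrays, it was 0.51 on SOD1G93A replicate 1, while SOD1G93A replicates 2 to 4 lay at -0.07 to -0.01 and wild-type nerves at -0.34 to 0.07. On the same scale the 10 genes were at -0.39 on SOD1G93A replicate 1, against 0.52 to 0.87 and -0.63 to -0.18. The mast cell list was at -0.66 on SOD1G93A replicate 1, with 8 of 10 genes measured, 0 with a higher mean, 0 with an unadjusted p under 0.05 and a median difference of -0.25, which was -0.10 without that array. The part of these shifts in the low values of the 10 genes on that array was not tested.

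Genes of muscle, fat and vessels mostly had lower means in SOD1G93A nerves. Skeletal muscle had 7 of 8 genes measured, 0 with a higher mean, 5 with an unadjusted p under 0.05 and a median of -1.62, and its summed signal was 4893 to 42075 in wild-type and 3619 to 4574 in SOD1G93A. Adipocytes had 7 of 8 measured, 0 with a higher mean, 3 with an unadjusted p under 0.05 and a median of -0.98, with a summed signal of 77979 to 277703 in wild-type and 34009 to 117285 in SOD1G93A. Smooth muscle and pericytes had 8 of 8 measured, 1 with a higher mean, 5 with an unadjusted p under 0.05 and a median of -0.65, and endothelium had 10 of 10 measured, 1 with a higher mean, 7 with an unadjusted p under 0.05 and a median of -0.53. Fibroblasts had 8 of 8 measured, 3 with a higher mean, 1 with an unadjusted p under 0.05 and a median of -0.04, or 0.02 without SOD1G93A replicate 1. The muscle list stood at 2.59 and 1.85 on wild-type replicates 1 and 2 and between -0.93 and -0.48 on the other 6 arrays. The smooth muscle list was at 1.09, 0.86, 0.02 and -0.35 on wild-type replicates 1 to 4, and from -0.67 to -0.27 in SOD1G93A. The adipocyte list was at 1.30, 1.00, 0.19 and -0.40 on those wild-type arrays, and from -1.55 to -0.11 in SOD1G93A. In these 2 lists the genotypes overlapped. The endothelial list ran from 0.02 to 0.46 in wild-type and from -0.48 to -0.06 in SOD1G93A. Wild-type replicate 1, the array with the most muscle signal, had the highest wild-type value of 7 of the 10 genes, and wild-type replicate 3 had the lowest of 8. How the muscle and fat RNA of the wild-type arrays bears on the 10 genes was not tested.

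**Figure D5:**
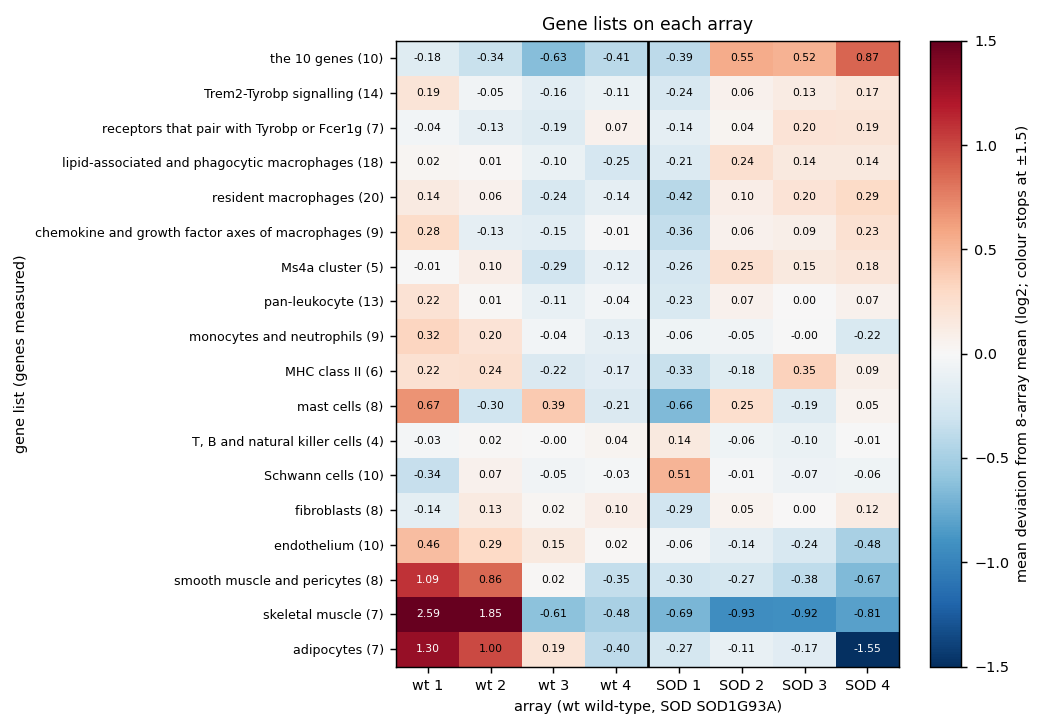
Mean deviation of each gene list from its mean over the 8 arrays (colour and printed value, log2), by array (horizontal axis) and list (vertical axis, with the number of genes measured). The 10 genes stand at 0.52 to 0.87 on SOD1G93A replicates 2 to 4 and at -0.39 on replicate 1, where the Schwann cell list is at 0.51; the muscle list is at 2.59 and 1.85 on wild-type replicates 1 and 2.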

How the data were processed

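Nerve RNA (Cy3) and reference RNA (Cy5) were hybridised to 8 Agilent arrays. Spots of both dyes are given in the deposited scanner files as linear intensity, written by Agilent Feature Extraction 11.5.1.1 per the file headers, while 11.0.1.1, and limma with no role, are named in the submitters' processing notes. The values of the deposited series table are log10 ratios, Cy5 to Cy3, that differ from the scanner log ratios by at most 0; each column's median was 0. Other deposited values, such as flags, have no scale. The sign was turned so that a positive log2 ratio means more in nerve than in the deposited reference channel.

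Mean intensity was corrected with normexp (offset 50 on the background) and loess within arrays (limma 3.58.1, R 4.3.3, data.table, version 1.17.8). Control spots had no weight, outlier spots were left out and spots of a probe were averaged. Probes were kept where 4 or more of the 8 arrays were well above background in Cy3 (19851), and the brightest kept probe stood for a gene name (15354 rows). Names are those of the array; the accessions of 12 of the 14 probes matched RefSeq, the 2 Cd68 probes keeping the name in the file. lmFit and eBayes were fitted to all rows, 2-sided, with Benjamini-Hochberg adjustment, and adjusted p-values come from this limma fit. The bound for the dim probe used Cy3 after loess and Aquantile. The procedure was run on simulated data in which each probe varied independently. On these arrays genes varied together, so that run does not show how the calls behave here. The number of arrays limits the precision. The p-values set a difference of means against the spread between these samples. They do not cover the spread of the reference pool or any effect of slide position.

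The 10 genes and the other lists were chosen with earlier results of these data known. The genes named are the 10 with all their probes, up to the first 3 measured genes of the other lists in list order, any list gene that was called (there were 0), and the 10 and 5 genes most alike in within-genotype deviation. Lgals3, Lyz1 and Sfpi1 were added after their values were seen, as was the set of scalings used for the lists. Ngfr and Robo4 were also added after their values were seen, because they passed the threshold without SOD1G93A replicate 1. Ms4a6c and Ms4a6d were added so that all measured genes of the Ms4a list are given. Some genes that this rule names are left out of the text, such as those of the MHC class II, mast cell, fibroblast and skeletal muscle lists.

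Alternatives changed the background correction, normalization, channel, dim-probe filter, replicate block, array weights, probe rule, source of values and the arrays left out. Same-numbered arrays did not deviate together (correlations of -0.17, 0.04, -0.11 and 0.10).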

Additional observations from a re-analysis of the deposited data

Results flagged for a closer look

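Trem2 in wild-type replicate 2, at a log2 ratio of 1.15 to the reference pool, stood apart from the other 3 wild-type arrays at 0.56 to 0.62. Its gap was 0.894 of the range of the group, above Dixon's critical value for 4 samples. Of 28 groups of 4 arrays tested over the 14 probes, 1 was above it, and chance gives about 1 in 20.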

How the results depend on the processing

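The 10 differences were positive in all 19 alternative settings, and their median ran from 0.48 (without SOD1G93A replicate 4) to 1.06 (arrays 2 to 4 only), against 0.68. SOD1G93A replicate 4 had the highest value for 10 of 10 genes. Without it the differences ran from 0.35 (Fcer1g) to 1.14 (Trem2), lower by construction. Which genes pass the threshold did depend on the setting. Over all genes 25 were called, against 6 with Agilent processed signals and also 6 with the series table, which hold nearly the same values, 1 with median centring, 7 with scale normalization, 16 without the dim-probe filter, 434 with array weights and 235 with arrays 2 to 4 only. Leaving out each array gave 3 to 181, the highest without SOD1G93A replicate 1. With the replicate number as a block, 1 gene was called and 0 of the 10; 0 arrays correlated best with their own number. Of the 10 genes, 10 were called with array weights, 8 with arrays 2 to 4 only, 7 without SOD1G93A replicate 1, 1 each with the Cy3 channel alone and the mean of probes, and 0 in the other settings; the cause was not tested. The ratio of Fcer1g to the pool turned from -0.04 to 0.028 with median centring and ran from -0.15 to 0.046 (without wild-type replicate 3) when arrays were left out. The dim Cx3cr1 probe was kept in the fit and gave a smaller difference, 0.28 against 0.93 for the brightest. The second Cd68 probe, near background, was left out of the fit. These probes limit what can be said of the size of the Cx3cr1 and Cd68 differences.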
